A study of Sus scrofa with 6 samples.

Results

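The miR-30 guide arms are the mature miRNAs from the 5′ side of the miR-30 hairpins, the strand that is usually loaded into Argonaute proteins. They were chosen by name, as ssc-miR-30a-5p, ssc-miR-30b-5p, ssc-miR-30c-5p, ssc-miR-30d and ssc-miR-30e-5p, where ssc marks the pig and is left out from here on, and all 5 were among the 453 porcine miRNAs of the deposited table. The samples were small extracellular vesicles (s-EVs), membrane particles that cells release, from the follicular fluid of prepubertal gilts (Landrace × Large White). In the HQ group the oocyte of each follicle did not take up lissamine green B, a vital stain used to judge oocyte quality, and in the LQ group it did. Each group had 3 replicates, described in the labels as biological, and each replicate was a pool of fluids from individually aspirated follicles, of which 0.5 mL was used. The pools shared the breed, the way of collection and the library kit, and no follicle or gilt can be followed separately. The sources used here do not say whether the pools came from the same day of collection. The labels give follicles of 2 to 6 mm, while the study's methods give 3 to 6 mm. The question was whether the miRNA cargo of the vesicles differs with the quality of the oocyte.

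MiRNAs guide Argonaute to messenger RNAs that pair with the seed, the bases near their 5′ end, and the bound messages are degraded or translated less. MiRNAs that share a seed are expected to share many targets, while the bases behind the seed can change the strength and choice of pairing. The miR-30 family is conserved across vertebrates and is abundant in many epithelial tissues. In human and mouse cells its known targets include regulators of autophagy, of the epithelial to mesenchymal transition and of apoptosis.

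The mature sequences, read from the Sscrofa11.1 genome at the positions of the RefSeq annotation, are shown because the members share one seed and part company behind it. Bases 2 to 8, the seed, are in capitals and the other bases in lower case, written 5′ to 3′.
miR-30a-5p: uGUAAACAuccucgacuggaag
miR-30e-5p: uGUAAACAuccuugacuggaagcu
miR-30d: uGUAAACAuccccgacuggaagcu
miR-30b-5p: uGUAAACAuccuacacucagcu
miR-30c-5p: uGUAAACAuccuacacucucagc

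No other miRNA of the table with a matched sequence carried this seed. The first 11 bases were identical in all 5 members. Behind them, the sequences fell into 2 types. miR-30a-5p, miR-30d and miR-30e-5p differed from each other at 1 or 2 of the bases they could be compared over, and miR-30b-5p and miR-30c-5p had their first difference after 18 shared bases. Counted from base 1 at the 5′ end, miR-30d differed from miR-30e-5p by C12U and C13U, miR-30a-5p from miR-30e-5p by C13U, and miR-30a-5p from miR-30d by U12C. The sources used here do not say how reads that match more than one member were assigned, so the separate values of miR-30a-5p, miR-30d and miR-30e-5p carry that uncertainty.

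The guide arms came from 6 hairpins in 3 pairs of neighbours on the same strand. miR-30e-5p (chr6:170429889-170429912, minus strand) and one copy of miR-30c-5p (chr6:170426829-170426851) lay in introns of NFYC, which encodes a subunit of the transcription factor NF-Y, with 2980 bases between the hairpins. miR-30a-5p (chr1:51412892-51412913, minus strand) and the other copy of miR-30c-5p (chr1:51383830-51383852) lay in introns of LOC102157778, a gene annotated as protein-coding. miR-30d (chr4:6948676-6948699, plus strand) and miR-30b-5p (chr4:6952804-6952825) lay between genes, and their hairpins were 4046 bases apart. Both copies of miR-30c-5p give the same mature sequence, so its reads cannot be assigned to either locus.

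Values are TMM-adjusted CPM (library-size scaled read counts), as normalized by the authors. They are relative levels and not shares of a library, since the CPM of a library summed to 915120 to 948868 in HQ and 1033599 to 1103611 in LQ. In such bulk samples fewer vesicles of a type and less of a miRNA per vesicle cannot be told apart. With the smallest value above 0 in a library taken as 1 read, the libraries held 898530 reads in LQ replicate 1 at the lowest and 3159116 in LQ replicate 3 at the highest, and each member rested on 1108 reads or more in every library. HQ and LQ were compared by limma on log2(CPM + 0.5) over the 309 miRNAs that averaged more than 1 CPM in HQ or in LQ, and a miRNA passed the test with a Benjamini-Hochberg adjusted p under 0.05. All 5 guide arms were tested. Positive log2 fold changes mean higher in HQ.

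In both groups miR-30e-5p was the most abundant of the guide arms, followed by miR-30a-5p, miR-30d, miR-30c-5p and miR-30b-5p. Among the 453 miRNAs, miR-30e-5p ranked 19th in HQ and 12th in LQ, and miR-30b-5p ranked 58th in HQ and 61st in LQ. miR-30e-5p and miR-30a-5p could not be separated in HQ, where their libraries overlapped and miR-30a-5p was the higher in replicate 1. In LQ, every library held more miR-30e-5p than miR-30a-5p. miR-30d lay below both and above miR-30c-5p in all 6 libraries, while the libraries of miR-30c-5p and miR-30b-5p overlapped in each group.

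**Figure D1:**
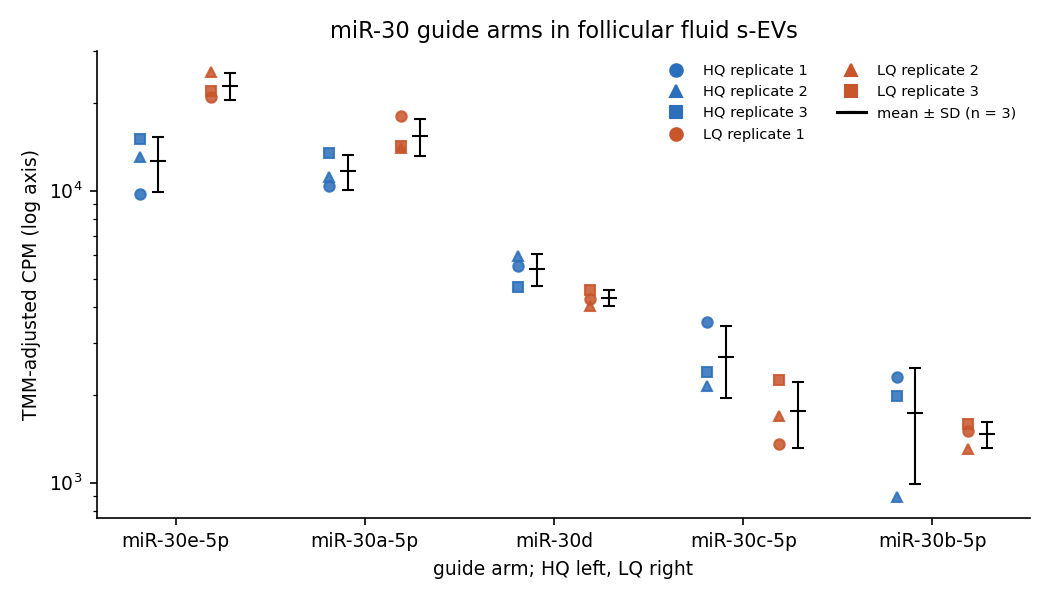
TMM-adjusted CPM (log axis) of the 5 guide arms in each library, HQ left and LQ right, with the mean and SD of 3 libraries beside the points. The HQ points of miR-30e-5p and miR-30a-5p lie below all their LQ points, those of miR-30d lie above, and those of miR-30c-5p and miR-30b-5p overlap with LQ.

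miR-30e-5p was lower in HQ s-EVs. It was at 9743, 13048 and 15027 CPM in HQ replicates 1 to 3, against 20891, 25509 and 21995 CPM in LQ replicates 1 to 3. The groups did not overlap, and the highest HQ library, replicate 3, stayed below the lowest LQ library, replicate 1. The mean was 12606 ± 2670 CPM in HQ and 22798 ± 2412 CPM in LQ (SD, n = 3 each). The log2 fold change was -0.87 (standard error 0.201, 95% interval -1.29 to -0.45, adjusted p = 0.00398 from limma), which is 1.83-fold higher in LQ. It passed without any 1 of the libraries (adjusted p of 0.00362 to 0.0383), but not when limma's variance prior had no intensity trend (adjusted p = 0.0620). Without LQ replicate 1, the library with the fewest implied miRNA reads, the log2 fold change was -0.93 (limma adjusted p = 0.00466). Over its 17 alternatives the adjusted p lay between 0.000170 and 0.0620.

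Of the 5 guide arms, miR-30e-5p was the only one past the test, against 26.5% of all tested miRNAs (14.9% lower in HQ and 11.7% higher in HQ). At the study's thresholds, which add a fold of at least 2 and more than 5 CPM on average on the enriched side, limma called 0 of 5. Of all tested miRNAs, 7.44% were lower and 5.18% higher in HQ at these thresholds. Among the alternatives, miR-30e-5p met them only with equal upper quartiles (-1.07, limma adjusted p = 0.00235) and without HQ replicate 3 (-1.01, limma adjusted p = 0.00659). An unadjusted p under 0.05 was found for 2 of 5, close to the 38.8% of all tested miRNAs. The libraries of the groups did not overlap for 3 of the 5 guide arms and for 43.7% of all tested miRNAs. HQ lay below LQ for 2 of the 5 and for 22.7% of all tested miRNAs, and above LQ for 1 of the 5 and for 21% of them. The guide arms' median log2 fold change was 0.13, beside 0.08 over all tested miRNAs.

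miR-30a-5p pointed the same way as miR-30e-5p by a smaller amount. It is known for repressing BECN1, a starter of autophagy, in human cancer cells. It was at 10398, 11139 and 13477 CPM in HQ replicates 1 to 3, against 17972, 13979 and 14275 CPM in LQ replicates 1 to 3. All HQ libraries lay below all LQ libraries, although HQ replicate 3 came close to LQ replicate 2, and LQ replicate 1 stood above the other LQ libraries. Its log2 fold change of -0.40 did not pass (standard error 0.195, 95% interval -0.81 to 0.01, limma adjusted p = 0.132), and passed only when the libraries were rescaled to equal upper quartiles (-0.60, adjusted p = 0.0440). Without LQ replicate 1 it was -0.28 (adjusted p = 0.310).

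miR-30d had the opposite sign, with a small difference. In humans it is known as a miRNA that the endometrium releases in vesicles. It was at 5526, 5976 and 4673 CPM in HQ replicates 1 to 3, against 4245, 4039 and 4583 CPM in LQ replicates 1 to 3. The HQ libraries lay above the LQ libraries, with HQ replicate 3 just above LQ replicate 3. The log2 fold change of 0.32 did not pass (standard error 0.200, 95% interval -0.09 to 0.74, limma adjusted p = 0.233), and did not pass under any alternative.

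miR-30c-5p had the largest positive value among the guide arms. In rodent heart it is known to repress CTGF, a matrix regulator that granulosa cells also make. It was at 3543, 2138 and 2401 CPM in HQ replicates 1 to 3, against 1361, 1687 and 2246 CPM in LQ replicates 1 to 3. HQ replicate 1 stood above the other libraries, and LQ replicate 3 lay above HQ replicate 2, so the groups overlapped. The log2 fold change was 0.61 (standard error 0.246, 95% interval 0.09 to 1.12, adjusted p = 0.0739 from limma). It passed under 5 of its 17 alternatives, among them rescaling to equal sums (0.80, adjusted p = 0.0217), GC correction (0.78, adjusted p = 0.0237) and without LQ replicate 3 (0.79, adjusted p = 0.0280), and its adjusted p was 0.311 without HQ replicate 1 and 0.194 without LQ replicate 1.

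miR-30b-5p varied most between HQ libraries and did not pass the test. It was at 2303, 896 and 1980 CPM in HQ replicates 1 to 3, against 1503, 1301 and 1589 CPM in LQ replicates 1 to 3. HQ replicate 2 was the lowest and HQ replicate 1 the highest of all libraries, and the LQ libraries lay between them. The coefficient of variation was 42.7% in HQ and 10.1% in LQ, against 12.3% in HQ and 6.40% in LQ for miR-30d, its neighbour on chromosome 4. Its log2 fold change of 0.13 (95% interval -0.47 to 0.73, adjusted p = 0.774 from limma) became -0.13 without HQ replicate 1, -0.02 without HQ replicate 3 and -0.07 with equal upper quartiles, and 0.55 (adjusted p = 0.114) without HQ replicate 2.

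**Figure D2:**
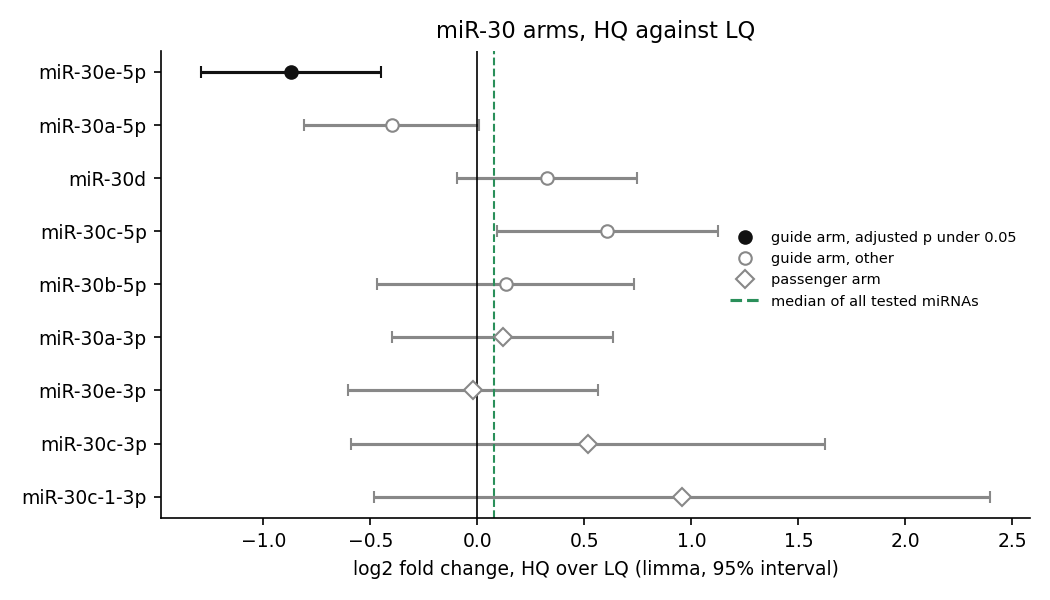
Log2 fold change (HQ over LQ) of the 5 guide arms and the 4 tested passenger arms, with 95% intervals from limma and the median of all tested miRNAs as a dashed line. The interval of miR-30e-5p, from -1.29 to -0.45, lies below 0, that of miR-30c-5p starts at 0.09 without passing after adjustment, and those of the other arms cover 0.

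The scaling of the libraries moved all miRNAs together. Equal sums of CPM shifted the median log2 fold change of all tested miRNAs by 0.18 and equal upper quartiles by -0.19. With equal sums, where values are shares of a library, miR-30e-5p was at -0.68 (adjusted p = 0.0211 from limma). A value relative to the median of its scaling hardly changes by construction, so it is no check of stability. On that scale miR-30e-5p was at -0.95 as deposited, -0.93 with equal sums and -0.96 with equal upper quartiles. The values of miR-30c-5p were 0.53, 0.55 and 0.52 in the same order.

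The make-up of the family differed between the groups, a comparison within a library that no scaling touches. Shares and ratios were not corrected for GC content, which differs among the members (below). The 5 guide arms summed to 31513, 33197 and 37558 CPM in HQ replicates 1 to 3, against 45972, 46515 and 44688 CPM in LQ replicates 1 to 3, and this was 3.65% ± 0.341 of all miRNA CPM in HQ and 4.27% ± 0.197 in LQ (SD, n = 3 each). miR-30e-5p held 30.9%, 39.3% and 40.0% of the guide arm sum in HQ replicates 1 to 3, against 45.4%, 54.8% and 49.2% in LQ replicates 1 to 3. The share of miR-30a-5p was similar in both, at 34.1% ± 1.53 in HQ and 33.7% ± 4.77 in LQ (SD, n = 3 each), with overlapping libraries. miR-30d held 17.5%, 18.0% and 12.4% in HQ, against 9.23%, 8.68% and 10.3% in LQ. miR-30c-5p held 11.2%, 6.44% and 6.39% in HQ, against 2.96%, 3.63% and 5.03% in LQ. Thus the shares of miR-30e-5p were below, and those of miR-30d and miR-30c-5p above, the LQ shares in every HQ library. The shares of one library add to a fixed total and are given as a description.

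**Figure D3:**
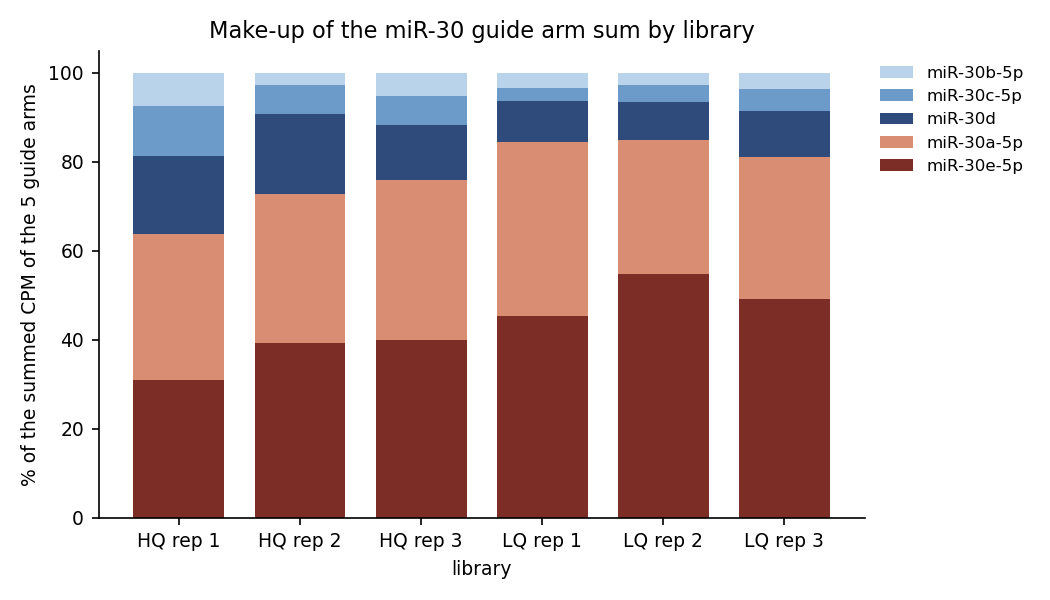
Share of the summed CPM of the 5 guide arms (%) that each guide arm held in each library, HQ libraries left and LQ libraries right. miR-30e-5p, the lowest segment, takes 30.9% to 40.0% in HQ and 45.4% to 54.8% in LQ, and miR-30d 12.4% to 18.0% in HQ and 8.68% to 10.3% in LQ.

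The same was seen in the ratio of miR-30e-5p to miR-30d, which differ at 2 bases. There was 1.76, 2.18 and 3.22 times as much miR-30e-5p as miR-30d in HQ replicates 1 to 3, against 4.92, 6.32 and 4.80 times in LQ replicates 1 to 3. The mean ratio was 2.39 ± 0.747 in HQ and 5.35 ± 0.842 in LQ (SD, n = 3 each), with no overlap. The log2 ratio for HQ minus LQ was -1.20, and with 1 library left out it lay between -1.43, without HQ replicate 3, and -1.0, without HQ replicate 1. For miR-30e-5p against miR-30a-5p the ratio was 0.937, 1.17 and 1.12 in HQ replicates 1 to 3, against 1.16, 1.82 and 1.54 in LQ replicates 1 to 3, and LQ replicate 1 fell inside the HQ range. Of the neighbours on chromosome 6, miR-30e-5p was lower in HQ, while miR-30c-5p, which is counted from 2 loci, had a positive log2 fold change that did not pass the test. These ratios are descriptions, and no test was made of them.

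The passenger arms come from the 3′ side of the same hairpins and are usually degraded. 5 of them were in the table, and 4 averaged more than 1 CPM in HQ or in LQ. The sequences of the most abundant passenger arms are shown because they carry a seed, again in capitals, that differs from that of the guide arms, and because they differ from each other by G18A alone.
miR-30a-3p: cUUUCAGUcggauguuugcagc
miR-30e-3p: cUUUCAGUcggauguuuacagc

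None of the 4 tested passenger arms passed limma's test, and 0 of 4 had an unadjusted p under 0.05, against 26.5% of all tested miRNAs past the test and 38.8% with an unadjusted p under 0.05. miR-30e-3p, from the hairpin of the guide arm that was lower in HQ, was at 510, 268 and 486 CPM in HQ replicates 1 to 3, against 533, 328 and 396 CPM in LQ replicates 1 to 3. Its groups overlapped almost entirely, and the log2 fold change was -0.02 (95% interval -0.60 to 0.56, adjusted p = 0.966 from limma), with a positive sign in 5 of 17 alternatives. miR-30a-3p was at 684, 455 and 683 CPM in HQ replicates 1 to 3, against 647, 456 and 563 CPM in LQ replicates 1 to 3. Its log2 fold change of 0.12 (95% interval -0.40 to 0.63, adjusted p = 0.771 from limma) was negative in 2 of 17 alternatives. Both passenger arms were lowest in replicate 2 of their group, and HQ replicate 2 was also the library with the least miR-30b-5p.

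miR-30c-3p and miR-30c-1-3p, one from each copy of the miR-30c hairpin, were near the floor of the libraries. miR-30c-3p was at 3.42 to 6.10 CPM in HQ and 2.46 to 3.97 CPM in LQ, and miR-30c-1-3p at 1.33 to 4.69 CPM in HQ and 1.23 to 1.36 CPM in LQ. One read was worth 1.23 CPM in LQ replicate 1, so these values rest on few reads. miR-30b-3p was not tested, with 0.469, 1.33 and 0 CPM in HQ replicates 1 to 3, against 0, 0.441 and 0 CPM in LQ replicates 1 to 3.

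There was 15.2, 24.5 and 19.7 times as much miR-30a-5p as miR-30a-3p in HQ replicates 1 to 3, against 27.8, 30.6 and 25.3 times in LQ replicates 1 to 3, with no overlap. The ratio of miR-30e-5p to miR-30e-3p was 19.1, 48.7 and 30.9 in HQ replicates 1 to 3, against 39.2, 77.8 and 55.5 in LQ replicates 1 to 3, and the groups overlapped. In both hairpins the mean ratio was lower in HQ, and the difference between the arms was not tested. These ratios were not corrected for GC content (below), which was 50.0% in miR-30a-3p and 45.5% in miR-30a-5p, and 45.5% in miR-30e-3p and 41.7% in miR-30e-5p. With GC correction the log2 fold changes were 0.06 for miR-30a-3p and -0.30 for miR-30a-5p, against 0.12 and -0.40 as deposited. They were 0.08 for miR-30e-3p and -0.63 for miR-30e-5p, against -0.02 and -0.87.

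**Figure D4:**
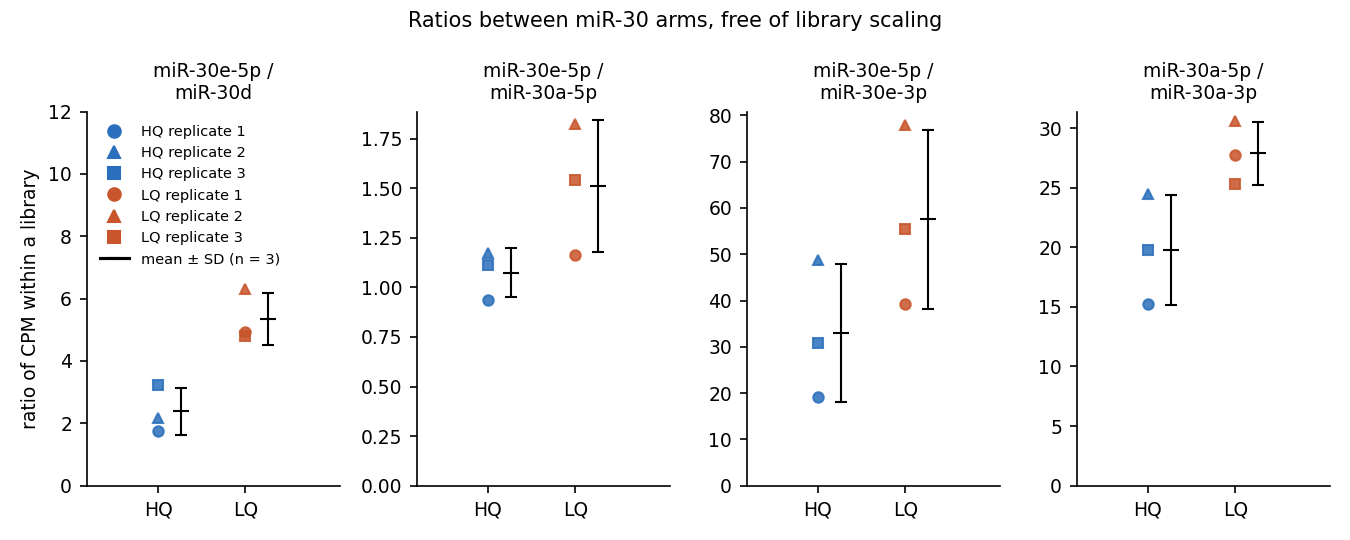
Ratio of CPM within a library for 2 pairs of guide arms and 2 pairs of guide and passenger arm, HQ left and LQ right in each panel, with the mean and SD of 3 libraries. The ratio of miR-30e-5p to miR-30d is 1.76 to 3.22 in HQ and 4.80 to 6.32 in LQ, and the ratios to the passenger arms have lower means in HQ.

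GC content differed among the members and moved with the groups over all miRNAs. The mature sequences held 40.9% GC in miR-30b-5p, 41.7% in miR-30e-5p, 43.5% in miR-30c-5p, 45.5% in miR-30a-5p and 50.0% in miR-30d. Over the 256 tested miRNAs of known GC content, the log2 deviation of a library from the mean of all libraries changed per 10 percentage points of GC by 0.25, 0.24 and 0.06 in HQ replicates 1 to 3, and by -0.17, -0.18 and -0.20 in LQ replicates 1 to 3. With a line on GC content subtracted from each library, miR-30e-5p still passed, with -0.63 on the log2 scale (limma adjusted p = 0.0237), against -0.87 as deposited. miR-30d was at 0.26 (limma adjusted p = 0.340) after the correction, against 0.32 as deposited. These members thus lay closer together than in the uncorrected ratios of miR-30e-5p to miR-30d, which were not recomputed. miR-30b-5p, with a GC content close to that of miR-30e-5p, was at 0.13 as deposited and 0.41 (adjusted p = 0.323) after the correction.

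**Figure D5:**
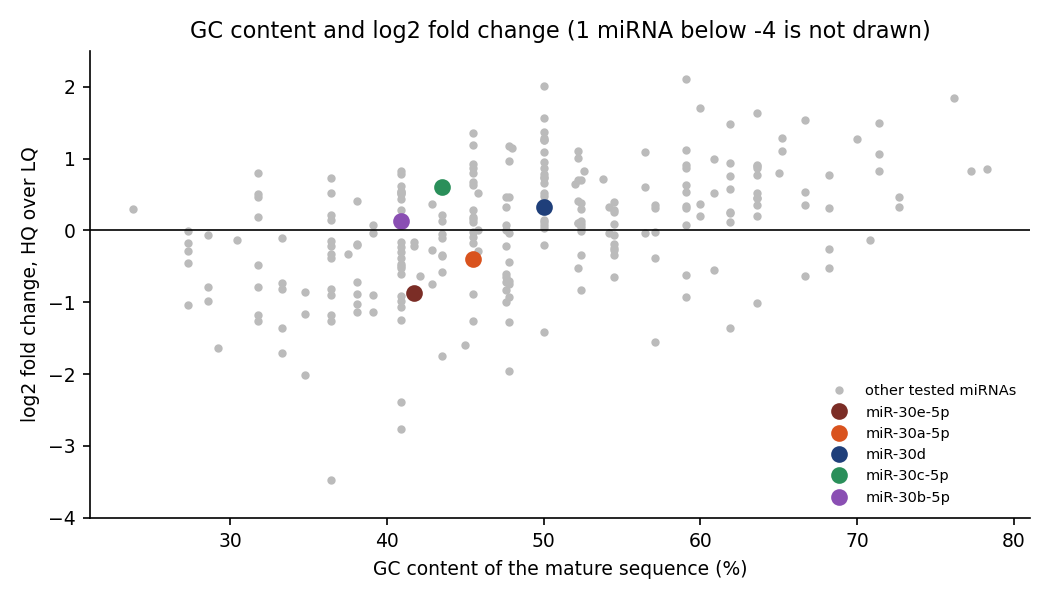
GC content of the mature sequence (%) against the log2 fold change (HQ over LQ) of 255 tested miRNAs, grey, with the 5 guide arms in colour and 1 miRNA below -4 not drawn. miR-30e-5p at 41.7% GC and miR-30b-5p at 40.9% GC stand at -0.87 and 0.13.

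Markers of the cells that the fluid could draw on were read from fixed lists. All 5 gonad miRNAs were in the table, led by miR-202-5p, and 4 of them were tested. They summed to 41428 to 90441 CPM in HQ and 62654 to 77682 CPM in LQ. One of the 4, miR-202-3p, named after its values were seen, was higher in HQ (log2 fold change 0.83, limma adjusted p = 0.0287). It was the only one past the test. The far more abundant miR-202-5p was at -0.07 (limma adjusted p = 0.877) and miR-378 at -0.28 (limma adjusted p = 0.429). The lists of several other cell types had lower sums of deposited CPM in HQ, as miR-30e-5p had a lower level. The CPM of whole libraries also summed to less in HQ, and the lists were not rescaled to equal sums. Beside the counts of listed miRNAs, 14.9% of all tested miRNAs were past the test as lower and 11.7% as higher in HQ. The endothelial list (2 of 2 in the table, 1 lower in HQ, led by miR-126-5p) summed to 874 to 1062 CPM in HQ and 1619 to 2149 CPM in LQ. The epithelial list (3 of 5 in the table, 1 lower in HQ, led by miR-141) summed to 763 to 1038 CPM in HQ and 1284 to 1502 CPM in LQ. The muscle list (4 of 4 in the table, 3 lower in HQ, led by miR-133a-3p) summed to 56.5 to 64.3 CPM in HQ and 147 to 230 CPM in LQ. The liver miRNA miR-122-5p was at 334 to 435 CPM in HQ and 443 to 821 CPM in LQ, and did not pass the test (limma adjusted p = 0.103). The leukocyte list (5 of 5 in the table, 1 lower in HQ, led by miR-223) summed to 193 to 213 CPM in HQ and 217 to 318 CPM in LQ. The erythrocyte list (3 of 3 in the table, led by miR-486) had 1 miRNA higher and 1 lower in HQ and summed to 99.3 to 152 CPM in HQ and 78.0 to 87.3 CPM in LQ. No listed miRNA of the table was at 0 in all libraries, and the part of these cells in the difference of miR-30e-5p was not tested.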

How the data were processed

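Small-RNA libraries of s-EVs from 3 HQ and 3 LQ pools (QIAseq miRNA kit, single-end Illumina reads) were analysed. For each miRNA and library the authors deposited a signal in TMM-adjusted CPM. The paper describes trimming, mapping to Sscrofa11.1 and miRBase annotation with CLC Genomics Workbench. Bowtie2 2.2.2, DESeq2 and bcl2fastq are listed in the submitters' processing notes. The sources used here settle neither which tools gave these values nor whether molecular identifiers were used. Sums of CPM were 915120 in HQ replicate 2 to 1103611 in LQ replicate 1. Every value lay within 6.66e-05 of a whole multiple of the smallest one in its library, and the reads so implied cover counting error only. A count test was not run, since the values were not accepted as recovered reads.

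Groups came from the labels. The test was limma 3.58.1 in R 4.3.3, two-sided, on log2(CPM + 0.5), with an intensity trend, for miRNAs averaging more than 1 CPM in HQ or in LQ. The fit was tested on simulated data with known changes. There, 9 of 20 miRNAs changed 1.5-fold passed, 16 of 20 changed 2-fold and 18 of 20 changed 4-fold. Of 245 unchanged miRNAs, 1 passed. A guide arm that did not pass is thus not shown to be equal in HQ and LQ. Members and lists were chosen with earlier results of these data known. Named miRNAs were the guide and passenger arms and the 2 miRNAs, guide arms left out, most like each guide arm (mean of at least 100 CPM). The most abundant of each marker list and seed families with members past the test in both directions were also named. miR-32, miR-92b-3p, let-7a and let-7i-5p follow from the last rule. Alternatives covered the pseudocount, the filter, 3 scalings, the variance prior, the replicate number as a block, GC correction and leaving out each library. Sequences and positions came from the RefSeq annotation of Sscrofa11.1, by name for 347 of 453 miRNAs, all 10 miR-30 arms among them, and by name without the arm for 20. Plots were made in Python 3.11.15 (matplotlib 3.10.9).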

Additional observations from a re-analysis of the deposited data

How the results depend on the processing

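miR-30e-5p kept its direction under all 17 alternatives and was past limma's test under 16, the exception being the variance prior without a trend (adjusted p = 0.0620, log2 fold change -0.87, standard error 0.243). miR-30a-5p kept a negative sign, and miR-30c-5p and miR-30d a positive one, under all 17. The filters, the variance prior and the replicate block leave a log2 fold change as it is, and the pseudocounts hardly move values this large. For the direction of the guide arms, only the scalings, GC correction and left-out libraries were therefore real checks. miR-30a-5p passed with equal upper quartiles (-0.60), and miR-30c-5p with equal sums (0.80), GC correction (0.78), the replicate block (0.61, adjusted p = 0.0292), the replicate block with GC correction (0.78, adjusted p = 0.00325) and without LQ replicate 3 (0.79), with a range of 0.39 to 0.79 when 1 library was left out. miR-30b-5p changed sign with equal upper quartiles (-0.070), and ranged from -0.13 to 0.55 when 1 library was left out. The passenger arm miR-30e-3p changed sign with equal sums (0.18), GC correction (0.085), the replicate block with GC correction (0.085), when HQ replicate 2 (0.28) or LQ replicate 1 (0.17) was absent, with a range of -0.19 to 0.28 when 1 library was left out, and miR-30a-3p with equal upper quartiles (-0.084) and without LQ replicate 2 (-0.017), with a range of -0.017 to 0.31 when 1 library was left out. The causes were not tested.

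The number of miRNAs past the test was 82, 29 with the variance prior without a trend, and 29 to 109 when 1 library was left out (29 without HQ replicate 2, 48 without HQ replicate 1, 46 without LQ replicate 2). Higher and lower in HQ split 36 to 46 as deposited, 60 to 27 with equal sums, 17 to 58 with equal upper quartiles and 28 to 27 with GC correction. The labels do not say that a replicate number marks a shared pool or day. Over all tested miRNAs, same-numbered HQ and LQ libraries did not deviate together (r of -0.04 to -0.01 across 309 miRNAs). These r weigh miRNAs near the floor like abundant ones, so they cannot decide whether a number marks something shared. With the replicate number as a block, 97 miRNAs passed. Depth limits what can be said of miR-30c-3p, miR-30c-1-3p and miR-30b-3p, which rested on few reads.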

Other observations

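Likeness of profile was taken as Pearson's r of log2(CPM + 0.5) over 6 libraries. The pool was 136 miRNAs with a mean of at least 100 CPM, from which the guide arms were left out. Likeness between guide arms was thus not examined. Within this pool, miR-30e-5p stood closest to miR-148b-3p (0.988) and miR-141 (0.975). Both were lower in HQ, with log2 fold changes of -0.98 (adjusted p = 0.00325 from limma) and -0.68 (adjusted p = 0.0289). miR-30a-5p was most like miR-769-5p (0.962) and miR-660 (0.942), and miR-30c-5p most like miR-574-3p (0.934) and miR-505 (0.929), none of which passed the test. miR-30d was most like miR-7134-3p (0.966) and miR-874 (0.957), both higher in HQ, with log2 fold changes of 0.93 (adjusted p = 0.0145) and 0.86 (adjusted p = 0.0125). miR-30b-5p was most like a passenger arm of its own family, miR-30a-3p (0.870), and miR-202-5p (0.869), at log2 fold changes of 0.12 (adjusted p = 0.771) and -0.07 (adjusted p = 0.877). The points share libraries and their depth, so these values are a description. Because r was taken across both groups, a close match to a miRNA that differs between them tends to share its direction.

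Among tested miRNAs of known sequence, 9 groups of at least 3 shared bases 2 to 8. The log2 fold changes of the miR-30 guide arms spanned 1.48, the second widest span, against a median span of 0.67. In 2 of the 9 groups members passed limma's test in both directions. One was the let-7 and miR-98 group, in which let-7i-5p averaged 16858 CPM in HQ, against 26276 CPM in LQ (log2 fold change -0.63, adjusted p = 0.0152), and let-7a averaged 26486 CPM in HQ, against 16416 CPM in LQ (0.74, adjusted p = 0.0213). The other held miR-32, averaging 180 CPM in HQ, against 309 CPM in LQ (-0.81, adjusted p = 0.0287), and miR-92b-3p, averaging 376 CPM in HQ, against 222 CPM in LQ (0.77, adjusted p = 0.0367). In 5 of the 9 groups, the miR-30 guide arms included, members passed in 1 direction, and in 2 none passed. Whether these spans differ beyond the error of single miRNAs was not tested.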
